A study of Mus musculus with 6 samples.

Results

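*Usp2*, *Upp2*, *Map2k6*, *Lrtm1*, *Wee1*, *Gm16063* and *9030619P08Rik* are 7 mouse liver genes, found by symbol among the 24421 genes of the authors' deposited table, and all 7 were present. They were chosen by the log2 fold change between genotypes that the authors calculated, from the strongly lowered end of that table, with lipid synthesis, core clock and cytochrome P450 genes set aside. That choice used results of these libraries, and the authors' fold changes and p-values are neither printed nor tested here. The libraries came from livers of mice of 2 genotypes, labelled C57BL/6 and given as C57BL/6 J in the study, 3 wild-type (WT) and 3 *Pai-1*+/−, which are heterozygous. All 6 were labelled 21 weeks old and as having free access to food, all ate standard chow, and the heterozygotes were bred from *Pai-1*−/− and WT parents. For age, the study's text and a figure legend give a slightly younger value than the labels. The labels call the WT mice males and name no sex for the heterozygotes, whereas a figure legend of the study describes both genotypes as male.

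The values reported are the authors' mean normalized counts, the average over libraries of both genotypes of read counts divided by size factors. The 6 columns of counts per animal carry numbers that match no sample label, so none was used, even for a spread over animals. No level per genotype or per mouse, no SD and no test of the genotypes is therefore given, and neither the depth nor the values of single libraries are given. For genes picked because they differed between groups, such a mean stands for neither genotype. The direction of the change was not measured here. In whole liver, fewer cells of a type and less RNA per cell cannot be told apart.

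Several of these genes are textbook outputs of the circadian clock in liver. CLOCK and BMAL1 activate genes through the E-box, the proteins DBP, TEF and HLF act through the D-box, and the ROR element is bound by the activating ROR and the repressing REV-ERB receptors. *Usp2* encodes a deubiquitinase, *Upp2* a uridine phosphorylase enriched in liver, and *Wee1* the kinase that holds CDK1 inactive before mitosis. *Map2k6* encodes the kinase MKK6, which activates p38 MAP kinases, and *Lrtm1* a leucine-rich repeat membrane protein. *Gm16063* and *9030619P08Rik* are annotated as non-coding.

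The start regions of the coding genes were examined first, because the question of what such genes share can be asked of their sequence without using the contrast that chose them. RefSeq promoter windows on GRCm38.p6, the same assembly as the mm10 build of the alignments, run from 250 bases before to 50 bases after an annotated start. They were held for 4 of the 7 genes, with 1 window for *Usp2*, 2 for *Upp2*, 3 for *Map2k6* and 1 for *Lrtm1*. Those of *Wee1*, *Gm16063* and *9030619P08Rik* were not analysed here. The windows below are shown because the second *Upp2* start and the second *Map2k6* start held the only matches to the motifs searched, while *Usp2* and the first *Upp2* start are shown for contrast. Capitals mark the matches, and all 4 windows are on the plus strand.

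Upp2, second start, chr2:58754934-58755233: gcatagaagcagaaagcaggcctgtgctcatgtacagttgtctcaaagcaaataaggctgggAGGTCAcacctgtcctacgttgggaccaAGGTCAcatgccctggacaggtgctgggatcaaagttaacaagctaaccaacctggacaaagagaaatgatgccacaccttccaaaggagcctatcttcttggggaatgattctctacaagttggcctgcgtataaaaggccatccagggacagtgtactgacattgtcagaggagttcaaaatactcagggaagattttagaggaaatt
Map2k6, second start, chr11:110478265-110478564: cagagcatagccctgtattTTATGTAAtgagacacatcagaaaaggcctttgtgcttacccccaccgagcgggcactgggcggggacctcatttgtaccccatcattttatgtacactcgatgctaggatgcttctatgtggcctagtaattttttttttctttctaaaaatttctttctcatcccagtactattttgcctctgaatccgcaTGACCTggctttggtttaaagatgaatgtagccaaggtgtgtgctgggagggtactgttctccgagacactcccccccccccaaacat
Usp2, chr9:44084670-44084969: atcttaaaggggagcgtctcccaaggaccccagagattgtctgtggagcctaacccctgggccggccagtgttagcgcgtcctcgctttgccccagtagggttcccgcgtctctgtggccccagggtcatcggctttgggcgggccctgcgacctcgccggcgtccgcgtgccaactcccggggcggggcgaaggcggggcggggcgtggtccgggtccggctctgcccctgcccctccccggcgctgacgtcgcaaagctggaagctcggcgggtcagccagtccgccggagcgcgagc
Upp2, first start, chr2:58567084-58567383: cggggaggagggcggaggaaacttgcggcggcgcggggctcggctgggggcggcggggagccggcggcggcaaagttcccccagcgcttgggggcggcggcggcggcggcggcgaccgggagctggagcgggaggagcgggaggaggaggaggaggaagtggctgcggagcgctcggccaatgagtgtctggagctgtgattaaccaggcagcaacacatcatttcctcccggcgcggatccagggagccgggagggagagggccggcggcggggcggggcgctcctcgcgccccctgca

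For the ROR element only the 6-letter core AGGTCA was searched, without the bases that flank it in a full element. In the counts below, ROR element names this core, and no match was shown to be a full element. The second start of *Upp2* held AGGTCA at 2 places, 188 and 160 bases before the start, both on the strand of the gene. At the second start of *Map2k6*, 1 ROR element lay on the other strand 38 bases before the start, where it reads TGACCT. The same window held the D-box TTATGTAA 231 bases before the start. This is a RefSeq start, and 0 GENCODE transcripts of *Map2k6* begin within 100 bases of it. Of the 7 windows, 2 held a ROR element and 1 a D-box, and 0 held the E-box CACGTG. Over all 32851 windows of the reference, a ROR element was found in 16.3%, a D-box (TTATGTAA or TTACGTAA) in 1.06% and an E-box in 7.15%. Over the 12659 windows of genes with a mean normalized count above 10, these shares were 13.3%, 0.798% and 9.74%. Each motif was searched on both strands, and no searched motif contains another. With 7 windows these counts describe the sequences and were not tested. For 18 genes of the clock itself or driven by it, listed with earlier results known, 15 genes had 20 windows, of which 6 held an E-box, 5 a ROR element and 1 a D-box. An absent word means only that these letters do not occur in these 300 bases.

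**Figure D1:**
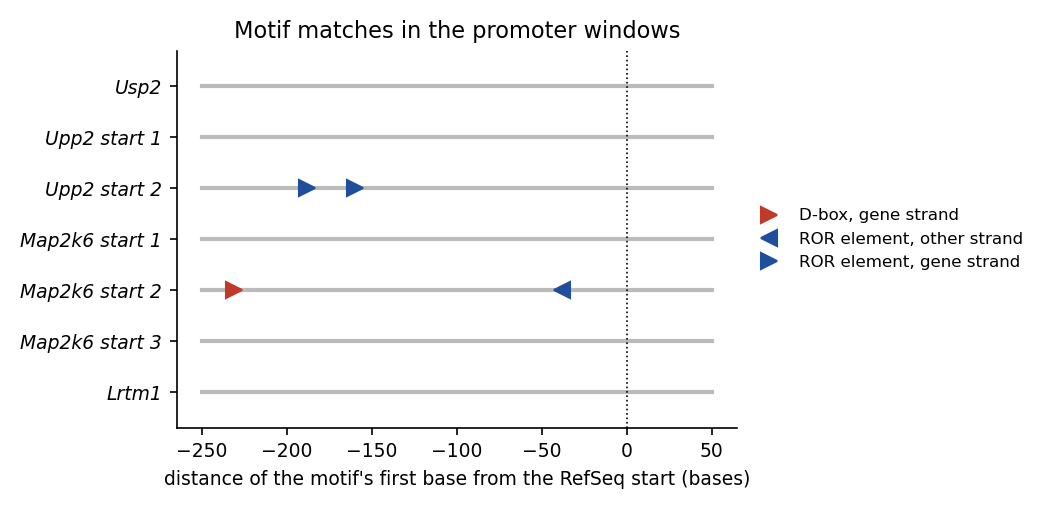
Motif matches in the 7 promoter windows of *Usp2*, *Upp2*, *Map2k6* and *Lrtm1*. The horizontal axis gives the distance in bases from the annotated start, and each grey line is 1 window. Arrowheads mark the core AGGTCA of the ROR element (blue) and the D-box (red). They point right on the strand of the gene and left on the other. Matches lie only at the second *Upp2* start and the second *Map2k6* start.

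The windows fell into different classes of base composition. The first *Upp2* start had 75.3% G and C and 37 CpG dinucleotides, and *Usp2* had 71.7% and 33. The other 5 windows had between 46.3% and 50% G and C, below the median of 52.7% over all windows, and between 2 and 14 CpG, against a median of 7. The 2 starts of *Upp2* therefore differ in kind. They lie 187850 bases apart, and 3 GENCODE transcripts begin within 100 bases of each, of which 1 is coding at the first start and 3 at the second. The window of *Usp2* is an internal start, 17899 bases inside the gene, at which 2 of its 9 transcripts begin, both coding. For *Map2k6*, 2 of 5 transcripts begin near the first start and 0 near the other 2. The deposited values sum over transcripts, so which start was used in these livers was not measured.

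The 7 genes lie on 7 different chromosomes, so closeness in the genome is not something they share. In GENCODE M21 on GRCm38, *Usp2* (ENSMUSG00000032010) spans chr9:44067021-44095627 and its longest transcript has 13 exons. *Upp2* (ENSMUSG00000026839) spans chr2:58567298-58792971, *Map2k6* (ENSMUSG00000020623) chr11:110399122-110525522 and *Wee1* (ENSMUSG00000031016) chr7:110122046-110143286. *Wee1* lies inside *1600010M07Rik*, an antisense gene on the other strand with a mean normalized count of 3.23, and shares 0 exonic bases with it. *Lrtm1* (ENSMUSG00000045776) at chr14:29018208-29033645 lies inside *Cacna2d3*, a calcium channel subunit gene on the other strand with a mean normalized count of 0.333, and shares 0 exonic bases with it. *Gm16063* (ENSMUSG00000085708), at chr5:119625942-119634464, is annotated as a long intergenic RNA and has 4 exons. It nevertheless lies inside *Tbx3os1*, an antisense gene on the other strand, and shares 0 exonic bases with it. *Gm16063* ends 36204 bases before *Tbx3*, a developmental transcription factor gene on the same strand. *Tbx3* had a mean normalized count of 1718 against 27.7 for *Gm16063*. *9030619P08Rik* (ENSMUSG00000053168) is annotated as a transcribed unprocessed pseudogene at chr15:75427606-75431829 on the minus strand. Its nearest coding neighbours are the *Ly6* family genes *Ly6l*, 17627 bases away, and *Ly6f*, 155370 bases away.

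Stretches shared with other genes were few. The exons of *Usp2* share 200 bases, or 4.15% of their length, with *Gm49380* and *Gm39325* on the other strand. No mean normalized count was found under either of these symbols. Without a stated strand setting, the strand that reads there came from is not known. Elsewhere 0 exonic bases were shared with an overlapping gene. For matches of at least 75 bases, the read length, and at least 90% identity among other genes' transcripts, *Upp2*, *Map2k6*, *Lrtm1* and *Wee1* had 0. *9030619P08Rik* matched *Ly6i* over 100 bases at 91.0%, and *Ly6i* had a mean normalized count of 0.312. *Gm16063* matched *Gm47027* over 86 bases at 93.0%.

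All 7 genes exceeded a mean normalized count of 10, as did 12971 genes of the table. They differed widely in abundance. *Upp2* had a mean normalized count of 14770, which was 7.29 times that of *Usp2* at 2026 and 533 times that of *Gm16063*. It made up 81.7% of the summed count of the 7 genes and ranked 266th of the 12971. Near it in the table stood *Ephx1*, *Cyp2a12* and *Mttp*, which encode an epoxide hydrolase, a cytochrome P450 and the microsomal triglyceride transfer protein. *Wee1* had a mean normalized count of 526 and *Map2k6* of 285. *Lrtm1* had 223 and *9030619P08Rik* 210. Only *Upp2*, *Usp2* and *Wee1* lay above the median of 440 over the 12971 genes.

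Levels of different genes are comparable only per length, and were divided by the longest GENCODE transcript in kilobases. *Upp2* then had 5186 per kb and *Usp2* 524, higher than 97.4% and 80.0% of the 12499 genes with a length. *9030619P08Rik* followed at 245 per kb, *Wee1* at 154 and *Map2k6* at 136. These 3 stood above the median of 129. *Lrtm1*, with a transcript of 7321 bases, had 30.4 per kb and *Gm16063* 16.3, below most genes. The pseudogene moved from place 6 by count to place 3 per length, since its longest transcript has 857 bases. Neighbours in this order were not tested, because no spread between mice was computed. The longest *Upp2* transcript has 2848 bases in 2 exons and is not annotated as coding. The longest coding transcript of *Upp2* has 2498 bases, which gave 5913 per kb. The choice of length mattered most for *Upp2*, at 1903 per kb when all its exons were merged. With merged exons *Map2k6* fell to 82.7 per kb, under the median of all genes. The order of the 7 was the same with each of these lengths.

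**Figure D2:**
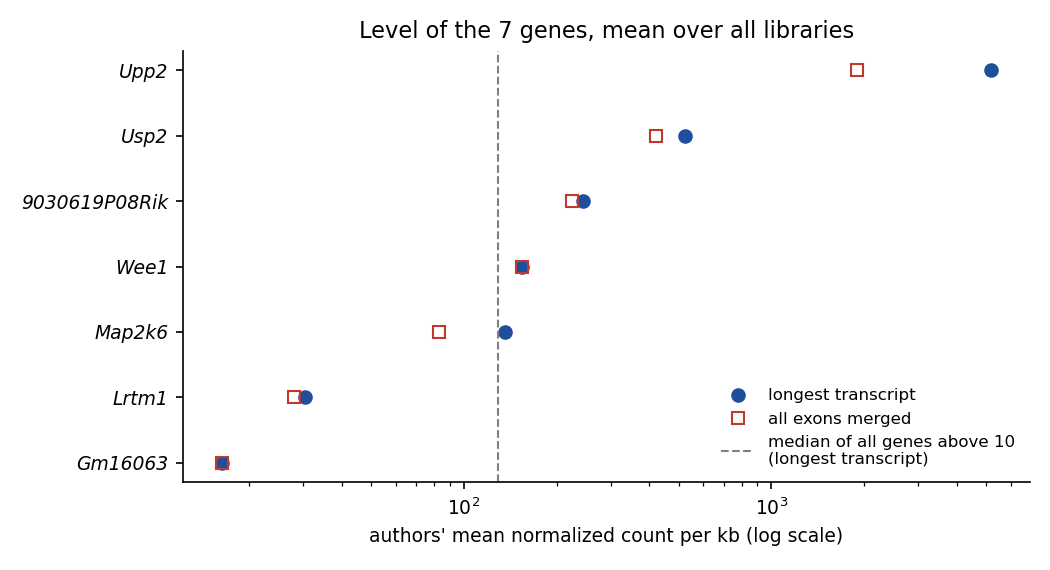
Authors' mean normalized count per kilobase for the 7 genes, on a log axis, over all libraries of both genotypes. Filled circles use the longest transcript and open squares all exons merged, without error bars because no value per mouse was used. The dashed line marks the median of 129 per kb over all genes above a count of 10, and the genes run from *Upp2* at 5186 to *Gm16063* at 16.3 per kb by the longest transcript.

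Within their families, the genes held different places. Levels in this paragraph are mean normalized counts per kb of the longest transcript unless named otherwise. *Upp2* stood 161 times above *Upp1*, the more widely expressed uridine phosphorylase, at 32.2. This ratio was 90.6 with all exons merged and 359 for counts not divided by length. *Wee1* stood 31.7 times above *Pkmyt1*, the membrane-bound kinase that shares its role, at 4.85. That ratio was 39.8 with all exons merged and 22.3 with the longest coding transcript. *Pkmyt1* had a mean normalized count of 14.1, near the minimum of 10, and the oocyte form *Wee2* had 0.182, under it. *Lrtm1* stood 10.4 times above *Lrtm2*, and 19.0 times without division by length. *Lrtm2* had a mean normalized count of only 11.7, also near the minimum. *Usp2* was the fifth of 42 ubiquitin-specific protease genes above the minimum count, after *Usp4*, *Usp10*, *Usp5* and *Usp47*, whose levels ran from 830 to 557, and was the third with all exons merged. *Usp7*, a regulator of p53 stability, came next at 506. *Map2k6* differed from the other genes in being the lowest of the 7 MAP kinase kinase genes. *Map2k3*, which also activates p38, had 904, and *Map2k2*, of the ERK pathway, had the highest level at 1248, although *Map2k3* was the highest with all exons merged.

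**Figure D3:**
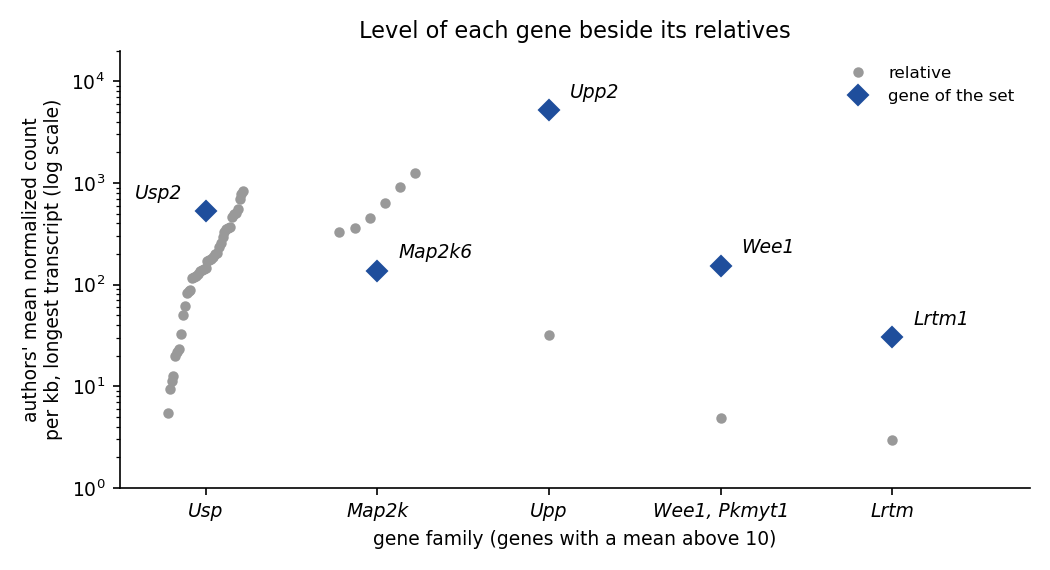
Authors' mean normalized count per kilobase of the longest transcript, on a log axis. Blue diamonds mark *Usp2*, *Map2k6*, *Upp2*, *Wee1* and *Lrtm1*, and grey points their relatives with a mean above 10, in order of level. *Gm16063* and *9030619P08Rik* are not drawn. *Upp2*, *Wee1* and *Lrtm1* lie above their relatives, *Usp2* is the fifth of 42, and *Map2k6* lies below the 6 other *Map2k* genes.

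Genes of the pathways to which these enzymes belong were placed beside them on the same scale. *Upp2* exceeded each of the 12 other genes listed for pyrimidine nucleoside salvage and breakdown, among them *Umps*, a gene of pyrimidine synthesis. *Dpyd*, *Dpys* and *Upb1*, the successive enzymes of uracil breakdown, were the nearest at 4542, 3497 and 2683 per kb, and the kinases *Uck1* and *Uck2*, which return uridine to nucleotides, had 318 and 32.1. With all exons merged, 2 of the 12 lay above *Upp2*. Of 13 genes listed for the p38 cascade, 5 lay below *Map2k6* and 8 above it. The list also holds *Mapk8*, below at 135 per kb, and *Map2k7*, above at 359, which belong to the JNK pathway. The p38 kinase *Mapk14* had 850 per kb and its target *Mapkapk2* had 1025, whereas *Mapk11* and *Mapk13* had 9.93 and 5.68. Of 10 genes of G2/M control, 7 passed the minimum count and all 7 lay below *Wee1*. This place was not particular to *Wee1*, since the 7 had a median of only 10.4 per kb. *Usp2*, *Upp2*, *Map2k6* and *9030619P08Rik* also lay above all 7. *Cdk1*, the substrate of WEE1, had 5.61 per kb, while *Cdk2* had 110 and *Cdc25a*, a phosphatase that opposes WEE1, had 33.5.

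Against 18 clock genes, *Upp2* lay above all 18, and *Usp2* above 12, next to *Nfil3* (482 per kb) and *Nr1d2* (599 per kb). *9030619P08Rik* lay above 7, *Wee1* above 6, *Map2k6* above 4, *Lrtm1* above 2 and *Gm16063* above 0. With all exons merged, *Usp2* lay above 11, *9030619P08Rik* above 9, *Wee1* above 7 and *Map2k6* above 3. With the longest coding transcript, *Wee1* lay above 5 and *Map2k6* above 3. The other places were the same. The clock genes themselves ran from *Bhlhe40* at 1328 per kb to *Bhlhe41* at 21.3. Levels of clock genes change over the day, and the study's text gives no hour of tissue collection. These places therefore hold only for the unstated hours at which the livers were taken.

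The tissue carried the markers of liver. The 5 hepatocyte markers had between 23793 (*Serpina1a*) and 1059760 (*Alb*) per kb. All 6 Kupffer cell, 6 endothelial, 4 stellate cell and 4 cholangiocyte markers exceeded the minimum count, with medians of 380, 158, 60.8 and 55.0 per kb. Of 6 neutrophil markers 4 did, with a median of 68.8, as did 4 of 5 lymphocyte markers with a median of 9.92. *Hbb-bs*, *Hbb-bt*, *Hba-a1* and *Hba-a2* were listed at 0 while the red cell gene *Alas2* had a mean normalized count of 2136. *Lrtm1* and *Gm16063* stood below the medians of the hepatocyte, Kupffer cell, endothelial, stellate cell, cholangiocyte and neutrophil lists. Both stood above the median of the lymphocyte list. From which cells the 7 transcripts came was not tested.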

How the data were processed

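Hepatic mRNA libraries of 3 WT and 3 *Pai-1*+/− mice were sequenced as single-end reads, and the authors aligned them to mm10 with STAR and ran DESeq2 in the RNA Express BaseSpace application. HOMER is also listed in the submitters' processing notes. Versions, the annotation and the strand setting are not given in the sources used here. The deposited signal used here is the authors' mean, for each gene, of size-factor normalized counts from libraries of both genotypes. The remaining numeric columns of that table, the authors' log2 fold changes, standard errors, test statistics and p-values for the genotypes, were not used. The 6 columns of deposited counts per animal were not used either, because their headings match no sample label. The planned fits to counts could not be run.

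Means were used as deposited, with a minimum of 10. Of the 12971 genes above it, 96.4% matched 1 GENCODE M21 gene by symbol and were divided by transcript length. Motifs were searched by exact match. Copies were sought with BLAST+ 2.17.0. Python 3.11.15 and pandas 2.3.3 were used. The motif search found 500 of 500 motifs planted in simulated sequences. The genes named are the 7 genes, members of the fixed lists and genes nearest in mean. Relatives, neighbours, overlapping genes and matched genes were added after the data were seen. The 7 genes and the lists were chosen with earlier results of these data known. Lengths from merged exons and from coding transcripts were tried as alternatives. The result of 1 other gene in the naming rule is not reported here.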

Additional observations from a re-analysis of the deposited data

How the results depend on the processing

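The number of the 7 genes above the median of all genes was 5 per kb of the longest transcript. It was 3 without division by length, 4 with all exons merged and 4 with the longest coding transcript, both chosen after seeing the data, and 5 among all genes above 0. The order of the 7 genes was the same with the 3 lengths, while *9030619P08Rik* fell from place 3 to place 6 without one. On the strand of the gene only, 1 window in place of 2 held the ROR core AGGTCA. The counts of 1 for the D-box and 0 for the E-box were the same. No paired analysis was possible because the columns of counts carry no replicate number of the labels. The comparison of genotypes was not run, and with it other size factors, the filter on low counts, the replicate block and leaving out each library, because these columns were not used. The levels are therefore given without an error between mice.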
